A study of Rattus norvegicus with 6 samples.

Results

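A set of 10 genes known for their expression in the choroid plexus was followed across 6 arrays of rat tissue labelled as cerebellum. The genes were Ttr, Folr1, Sostdc1, Kl, Clic6, Aqp1, Otx2, Enpp2, Igf2 and Prlr, chosen by the measured levels of Ttr and Folr1, which were high in 1 pool, together with 8 further genes of that tissue. They account for 11 of the 26419 features on the array and 10 of its 18947 named genes, and the brighter row was used for Prlr, which has 2. The alcohol group held 3 pools from male Sprague-Dawley rats, 8 to 10 weeks old and 240 to 260 g, that were fasted for 12 hours and then given 40% alcohol by gavage at 15 ml/kg. The brine group held 3 pools from rats of the same strain, sex, age and fasting given that volume of saline, which the labels call brine. Each pool combined the tissue of 3 of the 9 rats in a group and was hybridised to 1 single-colour NimbleGen array. Pooling leaves the spread between single rats unseen, p-values measure only the spread between pools, and how long after gavage the tissue was taken is not stated in the labels. Levels are log2 of the RMA intensity that the authors deposited, in which background is corrected, arrays are equalised and the 5 probes of a sequence are summarised. Below an intensity of 50, here called the floor and equal to 5.64 on the log2 scale, a level is only described as low.

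The choroid plexus is a folded epithelial sheet in the brain ventricles, including the fourth ventricle beside the cerebellum. Its cells secrete cerebrospinal fluid, seal the border between blood and fluid, and carry vitamins, hormones and ions across it. Transthyretin, the thyroxine and retinol-binding protein carrier encoded by Ttr, is among the most abundant transcripts of this epithelium. Several of the other genes are also active elsewhere: Enpp2 in oligodendrocytes, and Igf2 in the meninges.

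All 6 pools carry the tissue label cerebellum, but alcohol pool 2 and brine pool 1 stood apart in cerebellar markers. Pcp2, a Purkinje cell gene, was at 13.54, 5.27 and 13.42 in alcohol pools 1, 2 and 3, against 5.65, 13.60 and 13.44 in brine pools 1, 2 and 3. Each treatment group thus held 1 pool with little signal from this gene. The 8 granule cell genes had a median level of 7.52 in alcohol pool 2 and 7.98 in brine pool 1, against 13.29 to 13.38 in the other 4 pools. Differences are given over all 6 pools and, except for Prlr, also without these 2. In pooled tissue, more cells of a type and more RNA per cell cannot be told apart.

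The RefSeq promoter table used here, of the rat assembly GRCr8, matched 5 of the 10 genes, with 7 windows in all. The 250 bases before the start site are shown for 4 genes, 1 for each of the patterns across pools described below. They are Ttr, at chr18:12218508-12218757 on the plus strand, high in 1 pool; Kl, at chr12:5325753-5326002 on the plus strand, low in alcohol pool 2 and brine pool 1; Igf2, at chr1:207250476-207250725 on the minus strand, high in those 2 pools; and Aqp1, at chr4:85812534-85812783 on the plus strand, with the smallest range. Capitals mark every match, on either strand, to one of 4 motifs. The first, TAATC, is contained in TAATCC, the sequence preferred by Otx2-type homeodomain proteins. The others are TATAAA (the core of the TATA box), GGGCGG (the GC box) and CCAAT.
Ttr: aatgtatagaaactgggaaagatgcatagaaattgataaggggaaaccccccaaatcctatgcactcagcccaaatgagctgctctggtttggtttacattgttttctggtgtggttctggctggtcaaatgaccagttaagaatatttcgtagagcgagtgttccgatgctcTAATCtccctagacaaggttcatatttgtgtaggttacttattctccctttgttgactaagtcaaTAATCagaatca
Kl: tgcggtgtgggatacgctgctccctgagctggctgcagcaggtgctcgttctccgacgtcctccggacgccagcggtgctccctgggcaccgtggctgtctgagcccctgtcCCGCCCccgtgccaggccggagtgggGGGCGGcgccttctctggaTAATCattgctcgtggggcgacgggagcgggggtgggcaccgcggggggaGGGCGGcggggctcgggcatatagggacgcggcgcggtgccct
Igf2: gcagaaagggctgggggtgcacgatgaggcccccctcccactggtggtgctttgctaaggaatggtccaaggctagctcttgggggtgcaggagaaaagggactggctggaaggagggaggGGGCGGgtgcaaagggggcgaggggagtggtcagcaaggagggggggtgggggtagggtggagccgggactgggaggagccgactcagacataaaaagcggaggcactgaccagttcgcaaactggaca
Aqp1: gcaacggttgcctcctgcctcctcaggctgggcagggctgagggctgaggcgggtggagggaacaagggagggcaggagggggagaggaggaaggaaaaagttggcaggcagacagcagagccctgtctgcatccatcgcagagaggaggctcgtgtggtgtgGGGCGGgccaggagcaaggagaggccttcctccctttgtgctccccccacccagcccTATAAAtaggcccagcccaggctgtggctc
The full TAATCC was in 0 of the 7 windows and in 6.34% of all 33469 windows of this length. Its shorter form TAATC was in the Ttr window at 77 and 12 bases before the start site and once in the Kl window, against 20.5% of all windows. GGGCGG was in 3 of the 7 windows (Kl, Igf2 and Aqp1) and in 30.5% of all. TATAAA was in the Aqp1 window alone, 30 bases before the start, and in 12.9% of all windows, whereas CCAAT was in 0 of the 7 and 34.0% of all windows. These are matches of letters and not binding sites, and no measurement in the series bears on them.

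Ttr gave the widest range of the 10 genes. Its level was 13.67, 9.04 and 7.65 in alcohol pools 1, 2 and 3, against 6.78, 7.55 and 6.78 in brine pools 1, 2 and 3. On the linear scale this is an intensity of 13041, 527 and 201 with alcohol, against 110.2, 188 and 109.8 with brine. Alcohol pool 1 was 24.7-fold above the next highest pool, a gap of 4.63 log2 units that ranked 2 among all 26419 features. The other alcohol pools also lay above the brine pools, with 7.65 in alcohol pool 3 against 7.55 in brine pool 2 as the closest pair. The level averaged 10.12 ± 3.15 with alcohol and 7.04 ± 0.45 with brine (SD, n = 3 each), a difference of 3.08 that was the largest of all features. Without alcohol pool 2 and brine pool 1 the difference was 3.50, and without alcohol pool 1 it was 1.31. Ttr was chosen for this level, so these values are a description and no test is given.

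The deposited means show how far 1 array carries this gene. In the authors' deposited table of 18107 features, Ttr had a mean intensity of 4590 for alcohol and 135.9 for brine, a ratio of 33.8 that ranked 1 in that table. Alcohol pool 1 supplied 94.7% of the summed alcohol intensity. With the mean of alcohol pools 2 and 3 in its place, the ratio to the authors' deposited brine mean was 2.68. On the log2 scale, where 1 high array weighs less, the difference over all pools corresponds to 8.47-fold.

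**Figure D1:**
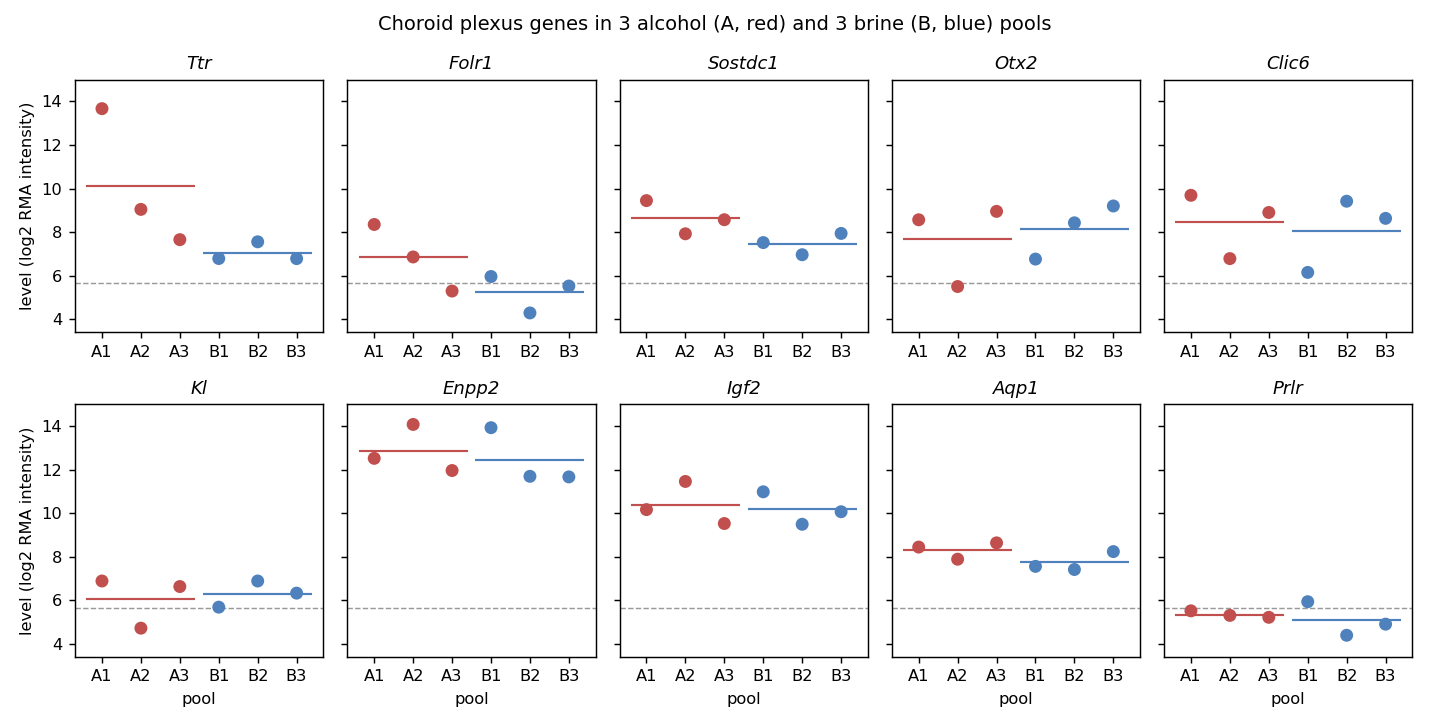
Level (log2 RMA intensity) of each choroid plexus gene in alcohol pools 1 to 3 (A1 to A3, red) and brine pools 1 to 3 (B1 to B3, blue). Horizontal bars are group means and the dashed line is the floor at an intensity of 50. Ttr stands at 13.67 in alcohol pool 1 and between 6.78 and 9.04 in the other 5 pools, while Otx2, Clic6 and Kl are lowest in A2 and B1, and Enpp2 and Igf2 are highest there.

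The other secreted proteins differed in pattern. Sostdc1, which encodes a secreted antagonist of BMP and Wnt signalling, was at 9.45, 7.92 and 8.57 in alcohol pools 1, 2 and 3, against 7.52, 6.96 and 7.94 in brine pools 1, 2 and 3. Alcohol pool 1 was again the highest, and the groups overlapped only through alcohol pool 2 and brine pool 3. The group difference was 1.17 (SE 0.45) with an adjusted p of 1.00 in limma, and an unadjusted p of 0.0369. Among the 4 pools with high cerebellar markers it was 1.56 (SE 0.46), and alcohol pool 2 exceeded brine pool 1 by 0.40. Without alcohol pool 1 it was 0.77.

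Enpp2 encodes autotaxin, the secreted enzyme that makes lysophosphatidic acid. It was at 12.52, 14.08 and 11.96 in alcohol pools 1, 2 and 3, against 13.93, 11.69 and 11.67 in brine pools 1, 2 and 3. The 2 pools with low cerebellar markers were the highest, on average 2.04 above the other 4. Within each kind of pool alcohol was above brine, by 0.56 (SE 0.24) among the 4 and by 0.15 between the 2. The difference over all pools was 0.42 (SE 0.80), with an adjusted p of 1.00 in limma, and it was -0.19 without alcohol pool 2 and 1.17 without brine pool 1.

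Igf2, a growth factor that the choroid plexus and meninges release, was at 10.16, 11.46 and 9.52 in alcohol pools 1, 2 and 3. Brine pools 1, 2 and 3 had 10.98, 9.49 and 10.07. The order of pools was again set by alcohol pool 2 and brine pool 1, which lay 1.41 above the mean of the other 4, and the treatment groups overlapped. The difference was 0.20 (SE 0.59) over all pools, adjusted p = 1.00 in limma, and 0.07 (SE 0.32) among the 4.

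Genes of other cell types were also highest in alcohol pool 2 and brine pool 1, as Enpp2 and Igf2 were. The 10 oligodendrocyte genes, such as Mog and Mag, had a median level of 14.03 in alcohol pool 2 and 13.94 in brine pool 1, against 11.86 to 12.28 in the other 4 pools. All 10 were highest in those 2 pools, as were 12 of the 14 meningeal and fibroblast genes on the array, which include Dcn and Col1a2. Of all features, 23.4% were highest there. The summed intensity of the oligodendrocyte list ranged from 78703 to 193950 with alcohol and from 70296 to 197780 with brine. That of the meningeal list ranged from 36798 to 83677 with alcohol and from 39124 to 73207 with brine, and all 14 of its genes reached the floor in some pool. The part of these cells in the levels of Enpp2 and Igf2 was not tested.

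Among receptors, Folr1 followed Ttr in its highest pool. Folr1 encodes the folate receptor that moves folate into cerebrospinal fluid. Its level was 8.35, 6.86 and 5.29 in alcohol pools 1, 2 and 3, against 5.96, 4.28 and 5.52 in brine pools 1, 2 and 3. It reached the floor in 3 pools, alcohol pools 1 and 2 and brine pool 1, and alcohol pool 1 stood 2.81-fold above the next. The difference of 1.58 over all pools was 1.92 without alcohol pool 2 and brine pool 1 and 0.82 without alcohol pool 1. It is given without a test because the gene was chosen for this level. In the authors' deposited table, Folr1 had a mean intensity of 160.3 for alcohol and 42.5 for brine, a ratio of 3.77 at rank 7. That brine mean lies under the floor, so the ratio is not a reliable fold.

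Kl encodes klotho, a membrane protein that acts with FGF receptors and is shed into cerebrospinal fluid. It was at 6.88, 4.72 and 6.63 in alcohol pools 1, 2 and 3, against 5.68, 6.88 and 6.33 in brine pools 1, 2 and 3. Alcohol pool 2 was under the floor and brine pool 1 just above it, so that both lay below the other 4. The difference was -0.22 (SE 0.63), adjusted p = 1.00 in limma, and 0.15 (SE 0.25) among the 4.

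Prlr, the prolactin receptor, was close to the floor throughout. Its level was 5.51, 5.30 and 5.21 in alcohol pools 1, 2 and 3, against 5.93, 4.39 and 4.90 in brine pools 1, 2 and 3. Only brine pool 1 reached the floor, so no fold is given. In brine pool 2 the intensity of 20.9 was below the 23.3 to 25.5 of the random-sequence probes on the arrays. The second row of this gene was at 5.76 in alcohol pool 2 and 5.65 in brine pool 1, and between 4.51 and 4.80 in the other 4 pools.

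Of the channel genes, Aqp1 varied least among the 10. Aqp1 is the water channel of the epithelium's ventricular face. It was at 8.44, 7.88 and 8.64 in alcohol pools 1, 2 and 3, against 7.56, 7.41 and 8.24 in brine pools 1, 2 and 3. The groups overlapped only where brine pool 3 exceeded alcohol pool 2. The difference was 0.59 (SE 0.31), with an adjusted p of 1.00 in limma and an unadjusted p of 0.105. It was 0.72 (SE 0.32) among the 4 pools, alcohol pool 2 exceeded brine pool 1 by 0.33, and leaving out any 1 pool gave 0.43 to 0.84.

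Clic6, of the chloride intracellular channel family, was at 9.69, 6.78 and 8.90 in alcohol pools 1, 2 and 3. It was at 6.15, 9.42 and 8.63 in brine pools 1, 2 and 3. Alcohol pool 2 and brine pool 1 lay 2.70 below the mean of the other 4. The difference was 0.39 (SE 1.06), adjusted p = 1.00 in limma. It was 0.27 (SE 0.40) among the 4 pools, and -0.57 without brine pool 1.

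Otx2, the homeodomain factor needed to form and maintain the choroid plexus, was likewise low in both of these pools. Its level was 8.56, 5.50 and 8.95 in alcohol pools 1, 2 and 3, against 6.76, 8.42 and 9.20 in brine pools 1, 2 and 3. Alcohol pool 2, under the floor, and brine pool 1 lay 2.66 below the mean of the others. Alcohol pool 1, with the highest Ttr, was not the highest for Otx2, and brine pool 3 was. The difference was -0.46 (SE 1.05), adjusted p = 1.00 in limma, and -0.05 (SE 0.32) among the 4 pools.

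The 10 genes did not share 1 pattern across pools, and the cells that gave their signal were not identified. Ttr and Folr1, chosen for it, were highest in alcohol pool 1, and so were 2 of the other 8, Sostdc1 and Clic6, against 11.1% of all features. Clic6 was 0.27 above brine pool 2 there. Otx2, Clic6 and Kl were lower in alcohol pool 2 and brine pool 1 than in the other 4 pools, which is also true of 25.1% of all features. Enpp2 and Igf2 were higher in those 2 pools, as were 23.4% of all features. Otx2, Clic6 and Kl thus ran in the direction of the cerebellar neuron markers, of which 7 of 8 Purkinje genes and 7 of 8 granule genes were lower in the 2 pools. The summed intensity ranged from 28689 to 121800 with alcohol and from 28617 to 128320 with brine for Purkinje genes, and from 2028 to 89448 with alcohol and from 2956 to 93696 with brine for granule genes. Genes of the hindbrain outside the cerebellum ran the other way, with 6 of 9 highest in the 2 pools, 2 of 9 under the floor in all pools, and sums from 580 to 5290 with alcohol and from 696 to 6439 with brine. Whether cerebellar neurons contribute to the signal of these 3 genes was not tested.

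**Figure D2:**
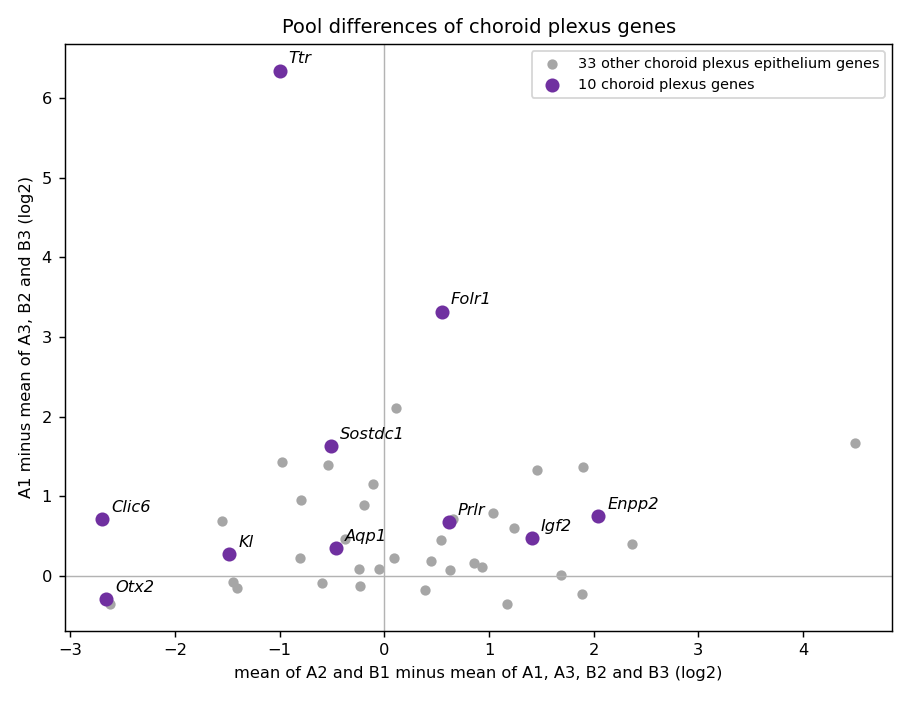
Each point is a gene; the horizontal axis is the mean of alcohol pool 2 (A2) and brine pool 1 (B1) minus the mean of the other 4 pools, and the vertical axis is alcohol pool 1 (A1) minus the mean of alcohol pool 3 and brine pools 2 and 3, both on the log2 scale. Ttr (6.34) and Folr1 (3.32) lie high, Clic6 (-2.70) and Otx2 (-2.66) lie at the left and Enpp2 (2.04) at the right.

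Other genes of the choroid plexus epithelium were taken from a list of 35, of which 33 were on the array and 18 reached the floor in all pools. A smaller gap than that of Ttr was present in some of them, between 1.17 and 1.41 log2 units. Alcohol pool 1 was the highest pool by 1 log2 unit or more for 3 of the 33, against 0.413% of all features. These were Mfrp, a frizzled-related membrane protein gene, Lmx1a, a transcription factor of the plexus and roof plate, and the organic anion carrier Slco1a5. Mfrp was at 8.09, 6.56 and 6.41 in alcohol pools 1, 2 and 3, against 6.68, 5.72 and 5.82 in brine pools 1, 2 and 3. Lmx1a was at 8.10, 6.11 and 6.80 with alcohol, against 6.93, 6.65 and 6.69 with brine. Slco1a5 reached the floor in alcohol pool 1 alone, at 6.56. It entered the count only through that pool, and its gap is measured from levels under the floor. Mfrp and Lmx1a reached the floor in all 6 pools. The share of all features was counted in the same way, with no floor set for the other pools.

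With no minimum gap, alcohol pool 1 was the highest pool for 9 of the 33 genes, against 11.1% of all features. The other contrast between pools was read in the same way. Of the 33 genes, 12 were highest and 5 lowest in alcohol pool 2 and brine pool 1, against 23.4% and 25.1% of all features. Htr2c, the serotonin 2C receptor of the plexus and of brainstem neurons, was at 7.04, 9.49 and 5.36 in alcohol pools 1, 2 and 3, against 11.09, 4.90 and 5.86 in brine pools 1, 2 and 3. Slc4a5, a sodium bicarbonate cotransporter, was at 7.77, 8.12 and 5.77 with alcohol, against 8.35, 6.49 and 7.06 with brine. Both are among the 12. The potassium channel gene Kcnj13, which is not, was at 10.22, 10.18 and 9.21 with alcohol and at 10.49, 9.48 and 9.83 with brine. In these 3 genes alcohol pool 1 was above alcohol pool 3 and brine pools 2 and 3, by far less than in Ttr. The tight junction gene Cldn3, Trpv4 and Stra6 were under the floor in all pools, and Cldn2, typical of this epithelium, reached it in 4 of 6 with a highest level of 6.88.

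With alcohol, 17 of the 33 were higher and 16 lower, with a median difference of 0.00. Limma called 0 of them, as it called 0 of all 26419 features. An unadjusted p under 0.05 in limma was found for 0 of the 33, against 2.65% (higher) and 1.25% (lower) of all features. The summed intensity of the list ranged from 21527 to 34150 with alcohol and from 23449 to 35296 with brine. Among the most abundant members, Slc12a2, the sodium, potassium and chloride cotransporter, differed by 0.01, Igfbp2 by 0.09, Slc4a10 by -0.17 and Slc13a4 by -0.03.

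**Figure D3:**
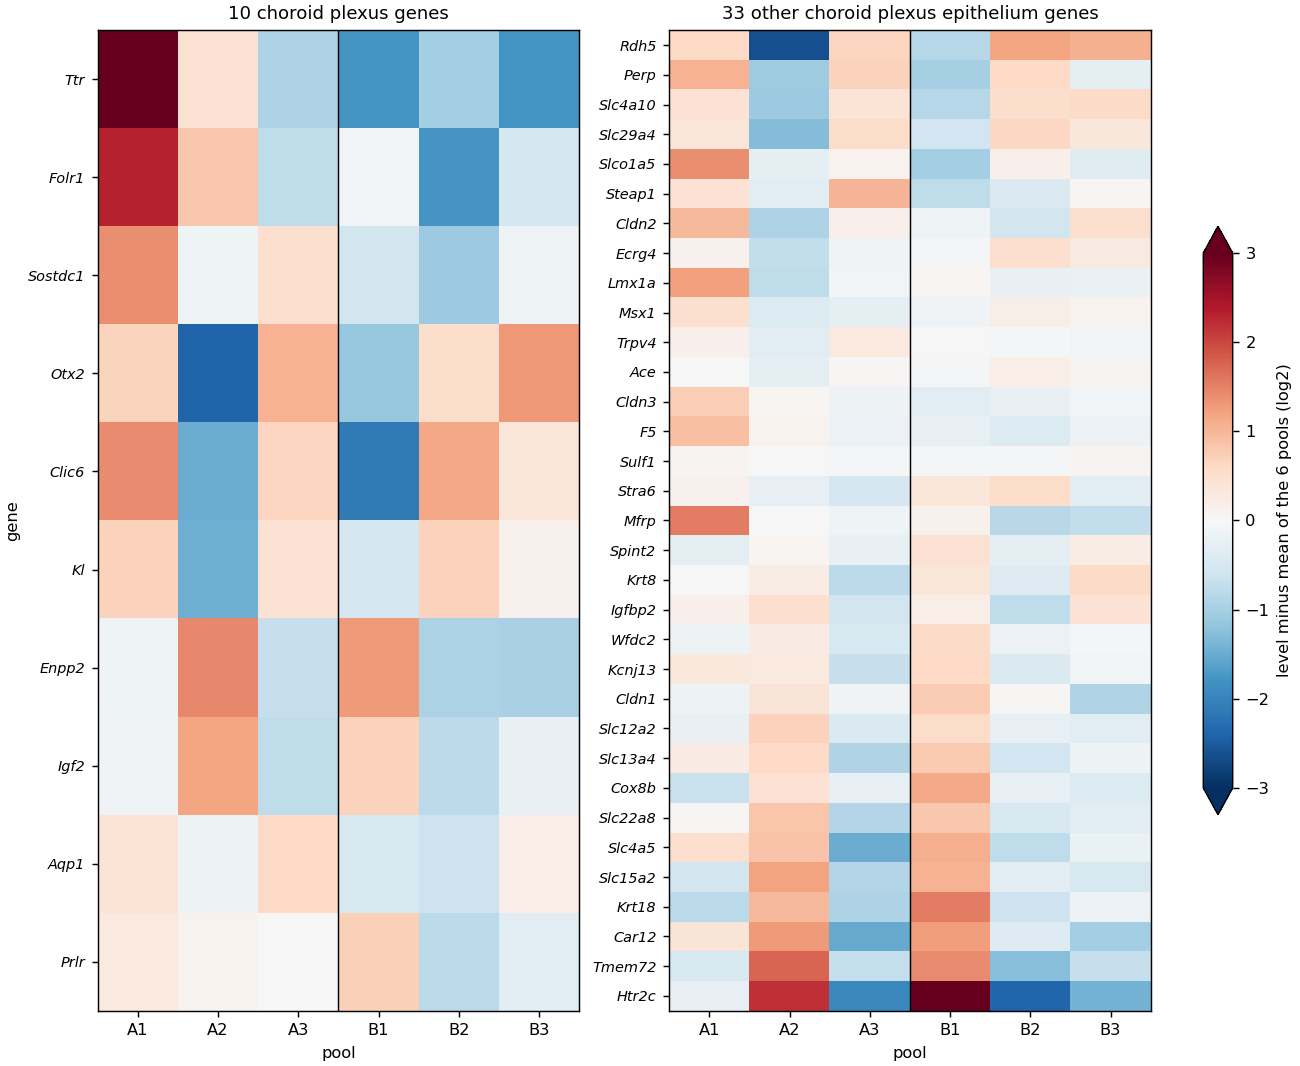
Level of each gene minus its mean over the 6 pools (log2; colours saturate at -3 and 3) in alcohol pools (A1 to A3) and brine pools (B1 to B3), for the 10 choroid plexus genes and for 33 other genes of the epithelium sorted by the difference between A2 with B1 and the other pools. Ttr and Mfrp are high in A1, whereas Htr2c, Tmem72 and Car12 are high in A2 and B1.

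The lists of neighbouring cell types were read for the same pools. Ependymal and ciliated genes (14 on the array) deviated from their 6-pool mean by a median of 0.23 in alcohol pool 1, 0.21 in alcohol pool 2 and -0.24 in alcohol pool 3. In brine pools 1, 2 and 3 the median deviation was 0.28, -0.13 and -0.39. Their summed intensity ranged from 3409 to 4233 with alcohol and from 2903 to 4454 with brine, and 3 of the 14 were under the floor in all pools. Ak7, an adenylate kinase of motile cilia, was at 6.76, 6.34 and 5.72 in alcohol pools 1, 2 and 3, against 5.68, 5.47 and 5.42 in brine pools. The difference of 0.75 (SE 0.29) had an adjusted p of 1.00 in limma. It does not stand for the list, of which 6 genes were higher and 8 lower with alcohol, with a median difference of -0.01. The alcohol pools all lay above the brine pools for 2 of the 14, Ak7 among them, and all below for 1, Dnai1. Of all features, 4.39% lay all above and 4.36% all below. Meningeal genes deviated by -0.05 in alcohol pool 1, relative to a mean that includes alcohol pool 2 and brine pool 1. Set against the mean of alcohol pool 3 and brine pools 2 and 3, alcohol pool 1 was higher for 14 of 14 meningeal genes (median 0.38), 10 of 10 oligodendrocyte genes (0.40), 11 of 14 ependymal genes (0.38) and 25 of the 33 other choroid plexus genes (0.23). Of all features, 48.3% were higher in that comparison. The part of these cell types in the high Ttr of alcohol pool 1 was not tested. Pineal genes were listed because Otx2 is also expressed there: 0 of 8 reached the floor in all pools, 3 were under it in all, and the melatonin enzyme gene Aanat reached it in alcohol pool 1 at 5.70 and brine pool 2 at 6.00. Alcohol pool 1 was above the mean of the 3 like pools for 4 of 8 vessel genes and 2 of 6 blood cell genes. The pineal sum ranged from 272 to 320 with alcohol and from 240 to 374 with brine, the vessel sum from 10035 to 28709 and from 11396 to 22680, and the blood sum from 80288 to 102250 and from 97051 to 99439.

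**Figure D4:**
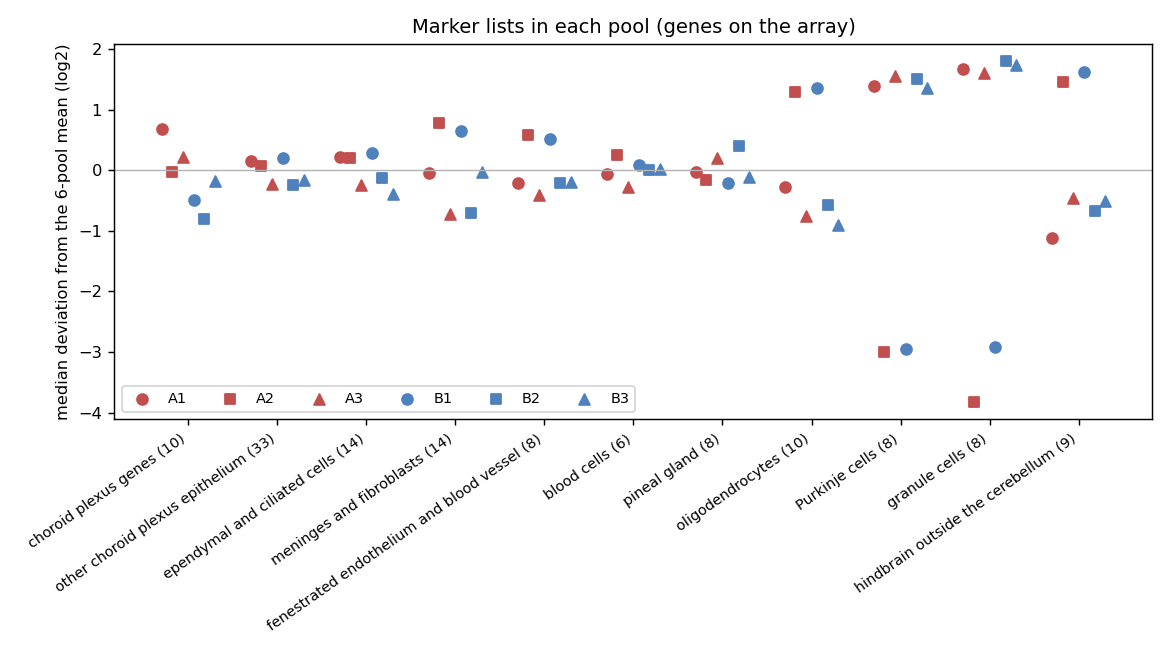
Median deviation of each marker list from its 6-pool mean (log2) in alcohol pools (A1 to A3, red) and brine pools (B1 to B3, blue); the number of genes on the array is in brackets. The choroid plexus genes include Ttr and Folr1, chosen for their level in A1, so their high median there (0.68) restates that choice, while Purkinje and granule genes are low and oligodendrocyte genes high in A2 and B1.

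Over the whole table, limma called 0 of 26419 features between alcohol and brine (0.0%), and 1030 had an unadjusted p under 0.05, of which 699 (2.65%) were higher and 331 (1.25%) lower. Of the 8 choroid plexus genes other than Ttr and Folr1, 0 passed and 1, Sostdc1, had an unadjusted p under 0.05. In mean level 6 of these 8 were higher with alcohol, against 45.9% of all features. The 6 include Prlr, which was under the floor in all pools but brine pool 1. The median difference of the 8 was 0.33, against -0.02 for all features. Kl and Otx2 had the lower mean with alcohol. Because alcohol pool 2 and brine pool 1 balance each other, fitting a term for them leaves these differences as they are and gives smaller standard errors for the 8 genes tested. With that term limma again called 0 features (0.0%), and 2502 (9.47%) had an unadjusted p under 0.05. Without the 2 pools limma called 0 features (0.0%), and 2121 (8.03%) had an unadjusted p under 0.05. With the term, Sostdc1 had an SE of 0.41 with an adjusted p of 0.496, Aqp1 an SE of 0.25 with 0.537, and Enpp2 an SE of 0.19 with 0.554 in limma.

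Direction within the kinds of pool separates the genes further. For 3 of the 8 genes other than Ttr and Folr1, namely Sostdc1, Aqp1 and Enpp2, alcohol pools 1 and 3 both exceeded brine pools 2 and 3, and alcohol pool 2 exceeded brine pool 1. The same was true of 10.8% of all features. The reverse order in both kinds held for 0 of the 8 and for 14.4% of all features. Over all 6 pools, alcohol values all exceeded brine values in 0 of the 8 (4.39% of all features), and the reverse held in 0 of the 8 (4.36% of all features). The direction of Kl, Otx2, Clic6, Enpp2, Igf2 and Prlr turned when 1 pool was left out, whereas that of Sostdc1 and Aqp1 did not. Ttr and Folr1 did not turn either, but both were chosen for their level in alcohol pool 1.

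**Figure D5:**
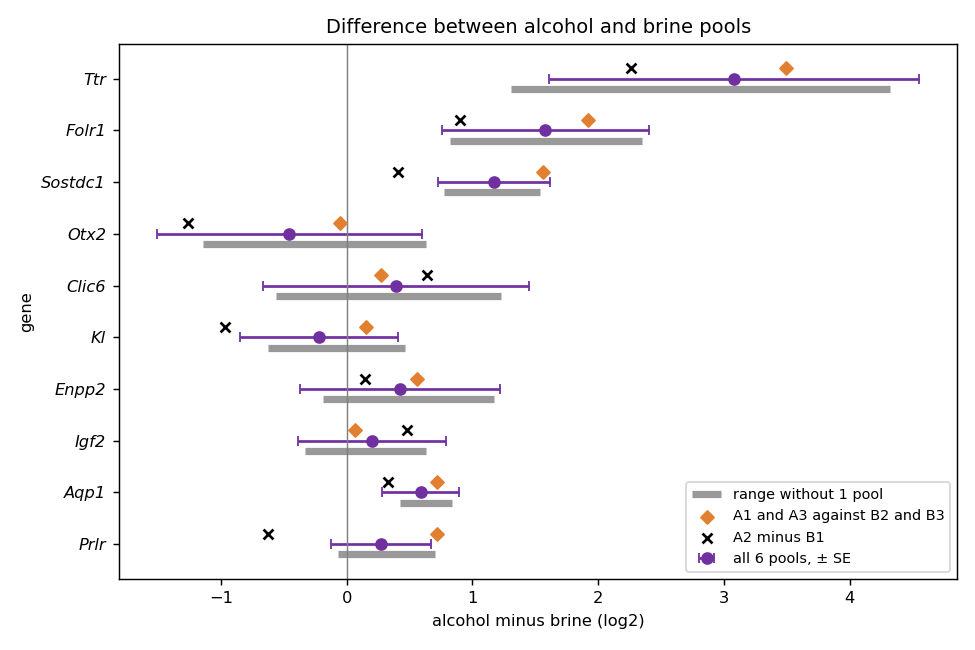
Difference between alcohol and brine pools (log2) for each choroid plexus gene: circles with bars are the mean difference over 6 pools with its SE, grey bars the range when 1 pool is left out, diamonds the difference among the 4 pools with high cerebellar markers (A1 and A3 against B2 and B3), and crosses alcohol pool 2 minus brine pool 1 (A2 minus B1). For Ttr, Folr1, Sostdc1 and Aqp1 all of these lie above 0, and Ttr spans 1.31 to 4.32 when a pool is left out. Ttr and Folr1 were chosen for their level in A1.

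Partners of these genes in their pathways were read in 10 lists. Limma called 0 of them, which says nothing particular about these lists because it called 0 of all 26419 features. Of the 11 genes that carry or use retinol and thyroid hormone, 8 were higher and 3 lower with alcohol, with a median difference of 0.10. Rbp4, the retinol-binding protein that transthyretin carries, was at 10.29, 11.17 and 9.58 in alcohol pools 1, 2 and 3, against 11.51, 9.76 and 9.46 in brine pools 1, 2 and 3, and so was not highest where Ttr was. Dio3, which inactivates thyroid hormone, was at 6.84, 6.60 and 7.42 with alcohol, against 6.00, 6.27 and 6.44 with brine. The 3 alcohol pools all lay above the 3 brine pools, as for 2 of the 11 genes in this list and 4.39% of all features. Its group means differed by 0.71 (SE 0.27), adjusted p = 1.00 in limma. Of 9 folate genes 4 were higher and 5 lower (median -0.05); the folate carrier Slc19a1 differed by -0.10 and the proton-coupled transporter Slc46a1 by 0.03.

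In the klotho list 5 of 9 genes were higher and 4 lower (median 0.04), with Fgfr1 at 12.45 to 12.62 in alcohol pools and 12.29 to 12.51 in brine pools; Klb was at 5.50, 5.21 and 5.72 with alcohol, against 6.08, 5.13 and 5.34 with brine. In the BMP and Wnt list 4 of 11 were higher and 7 lower (median -0.05), with a difference of 0.19 for the Wnt coreceptor Lrp6. Autotaxin's product acts through Lpar1, which was at 11.28, 13.22 and 10.51 in alcohol pools 1, 2 and 3, against 12.99, 10.55 and 10.62 in brine pools 1, 2 and 3, with the 3 highest pools in the order seen for Enpp2. The oligodendrocyte genes Mog and Mag had that order too, so it is not particular to Lpar1 and Enpp2. In the lysophosphatidic acid list 7 of 9 were higher and 2 lower (median 0.03). Of these 9 genes, 5 were highest in alcohol pool 2 and brine pool 1, as were all 10 oligodendrocyte genes and 23.4% of all features. In the growth factor list 5 of 10 were higher and 5 lower (median -0.07); Igf2r differed by 0.02 and Igf1r by 0.01. Of 10 prolactin and growth hormone signalling genes 5 were higher and 5 lower (median -0.01), and Prl itself was under the floor in all pools. Aquaporins other than Aqp1 (9) had a median of 0.13, with 6 higher and 3 lower, and the glial channel Aqp4 was at 13.37, 13.63 and 13.15 with alcohol, against 13.34, 12.96 and 12.78 with brine. The other chloride intracellular channel genes (5) had a median of -0.07, with 2 higher and 3 lower. Of them, 4 were highest in alcohol pool 2 and brine pool 1, opposite to Clic6, as were 23.4% of all features. Of 6 homeobox genes 4 were higher and 2 lower (median 0.02); En2 and Pax6, both active in cerebellar neurons, were lowest in those 2 pools, as Otx2 was.

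Likeness to Ttr was read as Pearson's r over the 6 pools among 7673 features with 1 gene symbol, a level at the floor in some pool and a range of 1 log2 unit or more. It is a description without a test, and 1 pool largely sets it. The 8 closest were Hs6st1 (0.98), Drc7, Crygf, F5, Chd1l, Trem1, Wfdc18 and Slc2a10 (0.94). Of these, Drc7, Crygf, Trem1 and Wfdc18 reached the floor in alcohol pool 1 alone. They became candidates only through the pool for which Ttr was chosen, so their likeness to Ttr is no evidence of a shared pattern. F5, coagulation factor V, belongs to the list of other choroid plexus genes, with 6.83 in alcohol pool 1 and 5.53 to 6.04 in the other 5 pools. Wfdc18, a whey acidic protein domain gene, was at 9.93 in alcohol pool 1 and at 4.29 to 4.64 elsewhere. Within the set of 10 genes, those most like Ttr were Folr1 at rank 43 (r = 0.85) and Sostdc1 at rank 67 (r = 0.78). Folr1 was itself chosen for its level in alcohol pool 1. For the rest of the 10, r with Ttr ran from 0.42 for Clic6 to 0.02 for Otx2. In the list of other choroid plexus genes, Mfrp at rank 26 and Slco1a5 at rank 34 also came before Folr1. That list as a whole did not follow Ttr. Among its genes that met the same criteria, r with Ttr ran from 0.97 for F5 to -0.46 for Cox8b, at rank 7174. The 8 features closest to Folr1 were Tac4 (0.96), Hs3st3a1, F5, Slfn4, N4bp1l1, Il1rn, Ak7 and Fcrl2 (0.93). Hs3st3a1 reached the floor in alcohol pool 1 alone. Il1rn, the interleukin-1 receptor antagonist, was at 8.34, 5.89 and 5.13 in alcohol pools 1, 2 and 3, against 6.28, 4.41 and 4.68 in brine pools 1, 2 and 3. Closest to the mean profile of all 10 genes were Or2h1b, Potem, Pabpc1l2a, Slc2a10, Chd1l, Sult1c2a, Drc7 and F5, with r from 0.96 to 1.00. Sult1c2a, like Drc7, reached the floor in alcohol pool 1 alone. The mean profile was 1.21 in alcohol pool 1 and -0.47 to 0.01 in the other 5 pools. Genes with a wide range weigh most in it, above all Ttr, which was chosen for alcohol pool 1. Among the 10 genes, r with the profile ran from 0.94 for Ttr to -0.09 for Igf2.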

How the data were processed

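For each of the 6 arrays the authors deposited linear intensity values by sequence, made with RMA per the submitters' processing notes, which name no version. Neither the genome build nor whether arrays were equalised jointly is stated in the labels. The row of 5651 random-sequence probes, at an intensity of 23.3 to 25.5, was left out. Array medians lay between 213.2 and 232.8, and 66.9% to 68.8% of features reached an intensity of 50 on an array, the level that decides entry to the authors' deposited table (18107 features, 0 exceptions). The number of arrays limits the precision. Alcohol was set against brine on log2 intensities, with no further normalization, in limma 3.58.1 under R 4.3.3. The model held treatment alone, p-values were two-sided and moderated by eBayes, and Benjamini-Hochberg adjustment ran over all features with a threshold of 0.05. The fit was also run on simulated data. No outcome of that run is given, and no conclusion about the fit to the measured pools is drawn from it. With 3 pools against 3, an exact permutation test cannot go below 0.10, so it was not used. Names came from a table of RefSeq genes (GRCr8) through the gene ID for 20681 features, the accession for 31 and the file's symbol for 318; 5389 stayed unnamed. Python 3.11.15, pandas 2.3.3, numpy 2.4.6 and matplotlib 3.10.9 were used. The 10 genes, the 20 other lists and the alternatives were chosen with earlier results of these data known. The naming rule took every choroid plexus gene, up to 4 of the brightest genes of each list and those at the floor in some pools only, and the 8 features most like Ttr, Folr1 and the mean profile; other genes were chosen after their values were seen. Where a gene has several rows, the one with the highest mean was used. Nothing in the labels says that equal replicate numbers share a batch.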

Additional observations from a re-analysis of the deposited data

How the results depend on the processing

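Under all 15 alternatives limma called 0 features and 0 of the tested choroid plexus genes, whose adjusted p ranged from 0.496 to 1.00. The count of features at an unadjusted p under 0.05, 1030 over all pools, was 2502 with a term for alcohol pool 2 and brine pool 1, 2121 without these 2 pools, 503 in the value table, 504 after the filter on dim features, and 614 to 1342 with 1 pool left out. With the replicate number as a block it was 647, with 0 features called. Deviations from the group means correlated over features by -0.63, -0.68 and 0.60 for equal numbers 1, 2 and 3. Those of alcohol pool 2 and brine pool 1 correlated by 0.84. These 2 pools, low in cerebellar markers, carry different numbers, so the correlations cannot tell whether equal numbers share a batch. The median difference of the 10 genes, which include Ttr and Folr1, was 0.41 over all pools; it lay between 0.25 and 0.72 with 1 pool left out and was 0.64 without alcohol pool 2 and brine pool 1. Of 148 gene values under alternatives, 11 turned direction, in 6 genes. Kl was 0.15 without the 2 pools, and with 1 pool left out ranged from -0.62 to 0.46. Leaving out 1 pool gave -0.57 to 1.23 for Clic6, -1.14 to 0.63 for Otx2, -0.19 to 1.17 for Enpp2, -0.34 to 0.63 for Igf2 and -0.073 to 0.70 for Prlr; the cause was not tested. Without alcohol pool 1, Ttr was 1.31, Folr1 0.82 and Sostdc1 0.77. Prlr has no value in the value table or under the filter, which leave it out. Levels near or under the floor, such as those of Prlr, Folr1 and Kl, have no reliable fold.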

Other observations

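With the term for alcohol pool 2 and brine pool 1, 18 of the 204 genes in the other lists had an unadjusted p under 0.05 between alcohol and brine, where 9.47% of all features did, and 0 passed limma's adjustment. The list of other choroid plexus epithelium genes held 4 of them among 33. Rdh5, a retinol dehydrogenase, was at 7.42, 4.16 and 7.45 in alcohol pools 1, 2 and 3, against 5.96, 7.98 and 7.88 in brine pools 1, 2 and 3 (-0.93, SE 0.28, adjusted p = 0.454 in limma). Steap1, a metalloreductase, was at 7.91, 7.15 and 8.48 with alcohol, against 6.72, 7.04 and 7.52 with brine (0.75, SE 0.23, adjusted p = 0.467 in limma). Ecrg4, which encodes a secreted peptide precursor, was at 7.42, 6.56 and 7.17 with alcohol, against 7.22, 7.79 and 7.57 with brine (-0.48, SE 0.15, adjusted p = 0.468 in limma). Krt18, an epithelial keratin, was at 5.53, 7.32 and 5.42 with alcohol, against 7.88, 5.72 and 6.15 with brine (-0.49, SE 0.16, adjusted p = 0.470 in limma). These 4 genes were named after their values were seen.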
